A study of Mus musculus with 48 samples.

Results

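The 10 mouse genes described here encode matrix-degrading proteases and the inhibitors that restrain them: Adamts1, Adamts4 and Adamts5, Mmp2, Mmp3, Mmp13 and Mmp14, and Timp1, Timp2 and Timp3. They were chosen by gene symbol, with earlier results of these data known, and make up 10 of the 55335 gene rows in each of 4 deposited expression tables. The study profiled RNA of bone and of osteocyte-like cells during aging and under mitochondrial or purinergic stimulation. Values were used from 27 libraries in 9 groups of 3, and the other 21 of its 48 samples were not analysed here. Whether the 3 libraries of a group were separate cultures or animals is not in the labels, so each p-value reflects library spread that may be technical.

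All mice and cells were recorded as wild type C57BL/6J, and the cell groups were MLO-Y4, a line of mouse cells with osteocyte features. In the first experiment cells received oligomycin A, which inhibits mitochondrial ATP synthase, at 50 µM for 1 h, or the same volume of DMSO as vehicle. Their supernatants were then placed for 2 h on other MLO-Y4 cells, which gave recipients of oligomycin A supernatant and recipients of vehicle supernatant. The treatment labels of these samples print 50 mM, the concentration of the stock in the protocol, and name oligomycin A for vehicle samples too, so groups follow the titles and the protocol. In the second experiment cells received 2 µM ADP for 2 h or no ADP. In the third, long and parietal bone fragments of 1-month-old mice were cultured for 48 h in medium collected from other bone fragments after 24 h, giving a medium transfer group and a control group, and whether the donors were young or old is not labelled for either group. The last group, with no partner in its table, was untreated femoral and tibial cortical bone of mice aged 18 months by the sample titles; per the protocol the bone was harvested along with marrow and other nonosseous tissue, then cut and washed.

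Matrix metalloproteinases (MMPs) and ADAMTS proteases are zinc enzymes, made as inactive precursors, that cut collagens and proteoglycans of the extracellular matrix. Tissue inhibitors of metalloproteinases (TIMPs) bind their active sites, and TIMP3 also inhibits aggrecan-cutting ADAMTS enzymes. Osteocytes sit in mineralized matrix, and collagenases such as MMP13 and membrane-bound MMP14 take part in how these cells remodel the walls of their lacunae and keep their processes.

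The tables hold FPKM, read fragments scaled by transcript length and library size, so levels of different genes can be set side by side per length. Library depth was not recoverable from them and is treated as unknown. Of 7 osteocyte markers 3 (Pdpn, Gja1 and Phex) reached 1 FPKM in every MLO-Y4 library, while Dmp1, Sost, Mepe and Fgf23 stayed under it, as did 4 of 5 osteoblast markers. Old cortical bone held the 6 neutrophil markers at a summed 66686 to 71814 FPKM and the 4 erythroid markers at 203138 to 214956 FPKM. Satellite-like repeat transcripts took 66.1%, 5.80% and 89.9% of the summed FPKM in the medium transfer libraries 1 to 3 and 86.1%, 88.6% and 81.7% in the control libraries of young bone, against at most 0.140% in old bone. Ribosomal RNA-like and 7S transcripts took 27.7% of vehicle library 2 and at most 0.423% of the other 11 libraries in that table.

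By GENCODE M21 positions on GRCm38, the genes fall into several chromosomes with neighbours among them. Adamts1 (chromosome 16, 85793827 to 85803113, minus strand) lies 53.1 kb from Adamts5 (85856173 to 85901828, minus strand), and Mmp13 (chromosome 9, 7272514 to 7283331, plus strand) lies 162 kb from Mmp3 (7445822 to 7455975, plus strand). The others are Adamts4 (chromosome 1, 171250421 to 171260637), Mmp2 (chromosome 8, 92827291 to 92853420), Mmp14 (chromosome 14, 54431612 to 54445364), Timp1 (chromosome X, 20870166 to 20874735) and Timp3 (chromosome 10, 86300372 to 86349506) on the plus strand, and Timp2 (chromosome 11, 118301069 to 118355740) on the minus strand. Every one is annotated as protein-coding, and the values are for whole genes.

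RefSeq promoter windows (GRCm38.p6, 250 bases before to 50 after the start) were at hand for 7 of the 10 genes; Adamts4, Adamts5 and Mmp2 are named only. Shown are the 4 that hold either of the searched response elements, Adamts1, Timp1, Mmp3 and Mmp13. They are printed because each passed an adjusted p of 0.05 in a comparison of MLO-Y4 cells. Subunits of the transcription factor AP-1 changed in the same libraries. Timp1 passed only with oligomycin A against vehicle, a call kept in 10 of 18 other settings. Mmp3 and Mmp13 passed only in recipients of vehicle supernatant against vehicle cells, and the Mmp3 call was kept in 4 of 18. Capitals mark TGANTCA, the AP-1 element, or TGACG, the core of the cyclic AMP response element, each searched on both strands, and no match overlapped another. The windows are chr16:85803064-85803363 (minus strand) for Adamts1, chr9:7445572-7445871 and chr9:7272264-7272563 (plus strand) for Mmp3 and Mmp13, and chrX:20869916-20870215 (plus strand) for Timp1.
Adamts1: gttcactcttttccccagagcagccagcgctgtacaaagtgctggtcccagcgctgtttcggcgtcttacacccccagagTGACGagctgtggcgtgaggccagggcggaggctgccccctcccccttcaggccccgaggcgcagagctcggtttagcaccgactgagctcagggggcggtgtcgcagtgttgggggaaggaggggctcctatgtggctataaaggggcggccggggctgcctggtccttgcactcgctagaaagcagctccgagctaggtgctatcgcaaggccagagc
Mmp3: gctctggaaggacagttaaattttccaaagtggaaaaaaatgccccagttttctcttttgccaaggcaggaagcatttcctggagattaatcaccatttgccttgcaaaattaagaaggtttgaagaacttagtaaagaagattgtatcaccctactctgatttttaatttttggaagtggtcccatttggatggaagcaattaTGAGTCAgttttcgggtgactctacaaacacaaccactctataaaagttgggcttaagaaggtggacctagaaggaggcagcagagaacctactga
Mmp13: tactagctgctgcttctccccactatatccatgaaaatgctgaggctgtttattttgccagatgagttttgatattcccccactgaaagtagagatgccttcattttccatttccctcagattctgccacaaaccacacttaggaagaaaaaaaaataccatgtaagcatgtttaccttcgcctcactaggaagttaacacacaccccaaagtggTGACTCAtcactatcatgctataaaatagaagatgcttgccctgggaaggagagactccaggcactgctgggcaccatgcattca
Timp1: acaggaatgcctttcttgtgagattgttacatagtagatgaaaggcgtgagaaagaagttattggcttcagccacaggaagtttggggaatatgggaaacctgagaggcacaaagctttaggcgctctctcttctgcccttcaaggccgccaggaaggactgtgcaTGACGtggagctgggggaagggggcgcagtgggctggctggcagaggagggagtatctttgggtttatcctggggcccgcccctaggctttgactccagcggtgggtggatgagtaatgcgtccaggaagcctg
The AP-1 match of Mmp3 begins 46 bases before the start and that of Mmp13 35 bases before it, while TGACG begins 170 bases before the start of Adamts1 and 84 before that of Timp1. TGANTCA is held by 7.81% and TGACG by 20.8% of all 32851 promoter windows. The Mmp14, Timp2 and Timp3 windows hold neither. A match is a description of letters and not a measured binding site.

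Across the 9 groups, MLO-Y4 cells were rich in Mmp2, Timp1 and Timp2, and bone was led by Timp1 with Mmp13 or Timp2. The tables may have been normalized separately, so an order across tables is a description. In bulk RNA fewer cells of a type and less RNA per cell cannot be told apart. Mmp2, the gelatinase A that cuts denatured collagen, averaged 646 ± 18.3 FPKM in oligomycin A supernatant recipients, 654 ± 16.2 in vehicle supernatant recipients, 496 ± 4.23 in oligomycin A cells and 529 ± 15.4 in vehicle cells (SD, n = 3 each). It averaged 309 ± 1.08 FPKM with ADP, 307 ± 5.92 without ADP, 38.3 ± 35.5 in young bone with medium transfer, 18.3 ± 9.24 in control young bone and 5.06 ± 0.819 in old bone. Every MLO-Y4 library thus lay above every bone library for this gene. Mmp14, the membrane collagenase that activates the Mmp2 product, was far flatter, from 3.39 FPKM in an old bone library to 56.6 in a medium transfer library, with all 18 MLO-Y4 libraries between 18.0 and 23.0 FPKM.

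Mmp13, the main interstitial collagenase of rodents, ran the other way. It averaged 406 ± 307 FPKM in medium transfer bone and 281 ± 211 FPKM in control bone (SD, n = 3 each), against 3.77 to 6.24 FPKM over the 12 libraries of the oligomycin A table and 0.485 to 0.879 FPKM over the 6 of the ADP table. Old bone held 5.94 ± 0.540 FPKM, a mean within the range of the oligomycin A table. Mmp3 (stromelysin 1, which cuts proteoglycans and activates other MMPs) spanned 9.62 to 202 FPKM in young bone, 53.0 to 75.7 FPKM in the oligomycin A table and 13.4 to 16.4 FPKM in the ADP table. In old bone it reached 0.940 and 0.415 FPKM in libraries 1 and 2 and was listed at 0 in library 3.

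Of the inhibitors, Timp1, the secreted one that many cells induce, had the highest level of all 10 genes in young bone, at 1061 to 6063 FPKM over the 6 libraries. It stood at 390.0 to 420 FPKM in the ADP table, 169.9 to 226 FPKM in the oligomycin A table and 17.2 to 25.6 FPKM in old bone. Timp2, which inhibits MMPs and also takes part in pro-MMP2 activation with MMP14, was highest in the ADP table, at 186 to 195 FPKM, and lay at 22.6 to 93.5 FPKM in young bone. Timp3, the inhibitor that binds the matrix, was a bone transcript here: it had 5.29 to 7.71 FPKM in old bone and 19.7 to 145 FPKM in young bone, against at most 0.153 FPKM in any of the 18 MLO-Y4 libraries. It passed the filter of a mean of 1 FPKM in the young bone table and in no fit of MLO-Y4 cells.

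The ADAMTS enzymes, secreted proteases that cut aggrecan and versican, differed in level among themselves. Adamts1 was the highest of them in every MLO-Y4 library, at 20.1 to 55.2 FPKM, against 2.08 to 4.13 FPKM for Adamts4 and 3.37 to 5.77 FPKM for Adamts5. In old bone the order was different, with Adamts5 at 1.41, 1.61 and 2.00 FPKM in libraries 1 to 3, above Adamts1 at 0.834, 0.853 and 0.543 FPKM. Ranked by group mean, Adamts1 was highest in oligomycin A cells, whose libraries lay above those of all other groups, and oligomycin A supernatant recipients and vehicle cells came next with overlapping ranges.

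**Figure D1:**
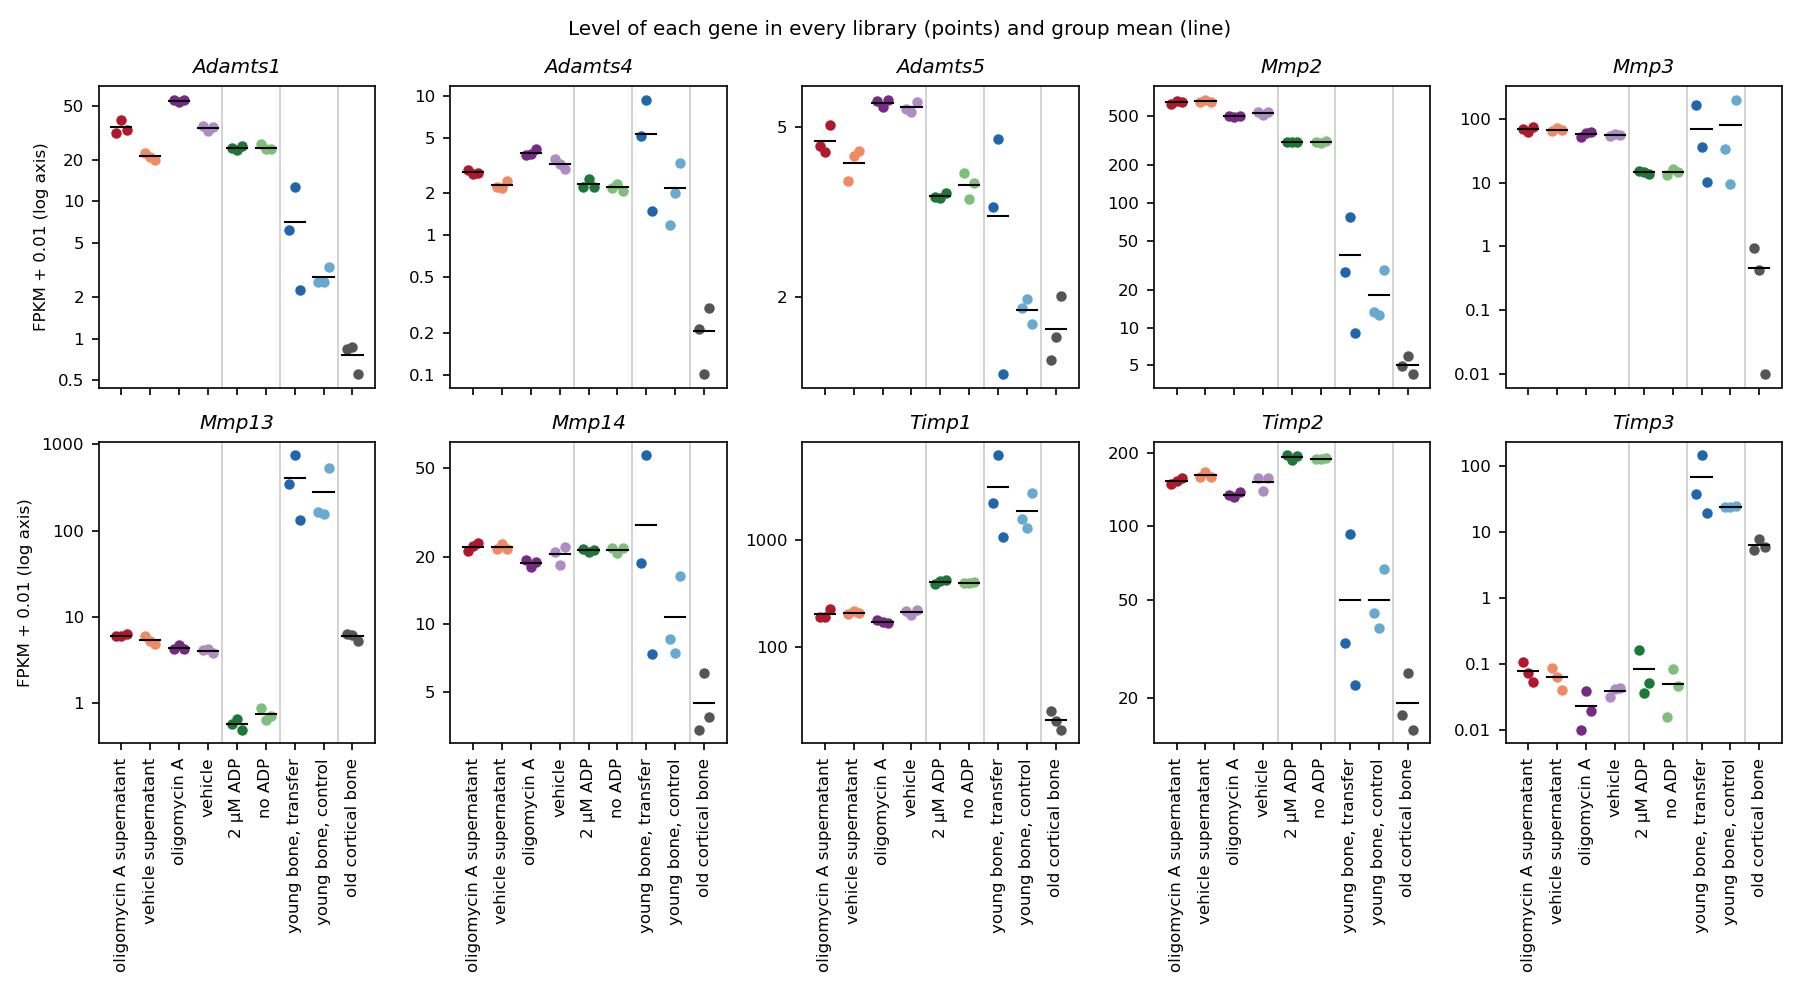
FPKM + 0.01 on a log axis for each of the 10 genes. Points are libraries, 3 per group, and lines are group means. Grey lines part the 4 tables, which may have been normalized separately. Timp3 stays at or under 0.153 FPKM in MLO-Y4 cells and reaches 5.29 to 145 FPKM in bone, while Mmp2 lies at or above 302 FPKM in every MLO-Y4 library and at or under 77.9 FPKM in bone.

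The balance of inhibitor and protease transcripts differed among the tables more than within them. TIMP transcripts made up 31.2% ± 1.21 of the summed FPKM of the 10 genes in oligomycin A supernatant recipients, 32.4% ± 0.148 in vehicle supernatant recipients, 32.4% ± 0.390 in oligomycin A cells and 35.9% ± 0.772 in vehicle cells (SD, n = 3 each). Their share was 61.5% ± 0.607 with ADP and 61.1% ± 0.303 without ADP, and in bone it was 84.7% ± 4.07 with medium transfer, 84.5% ± 5.50 in control and 71.4% ± 1.34 in old cortical bone. The ADAMTS share was 6.82%, 6.61% and 6.76% in oligomycin A libraries 1 to 3, against 4.27%, 4.23% and 4.18% in vehicle libraries, and these did not overlap. The TIMP share did not overlap either, at 32.2% to 32.9% in oligomycin A libraries against 35.1% to 36.5% in vehicle libraries. These shares are sums over genes that were picked with earlier results known, so no test is given for them.

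**Figure D2:**
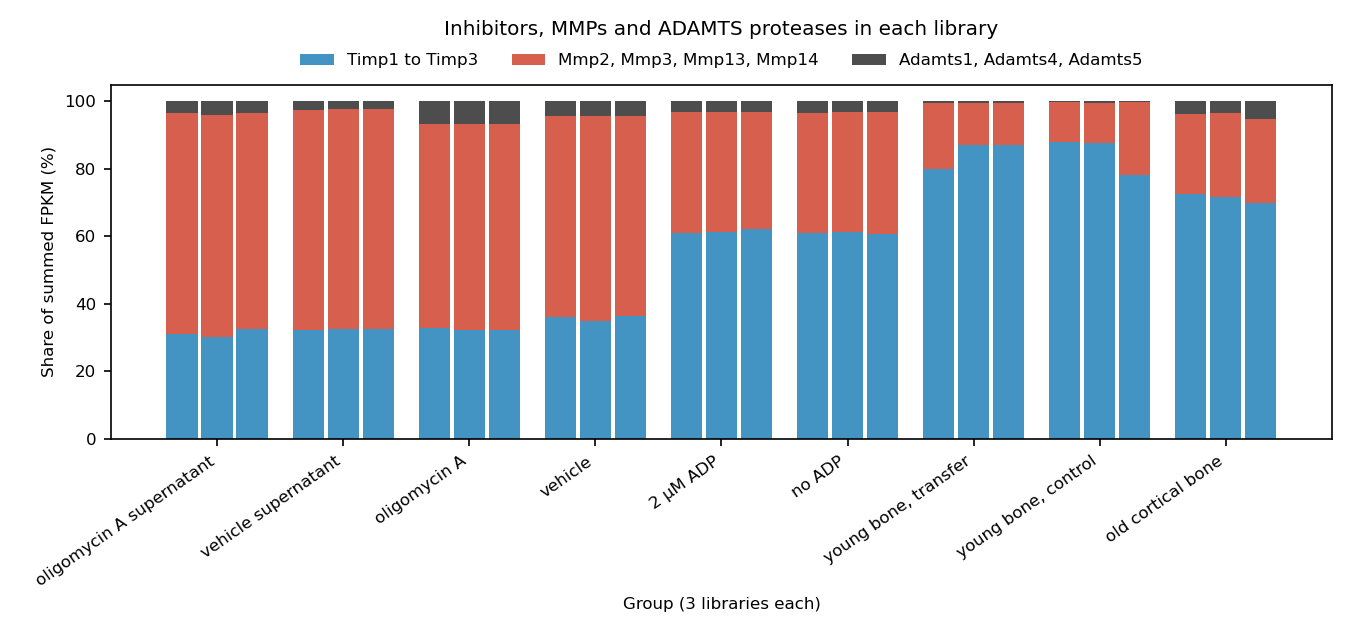
Share of the summed FPKM of the 10 genes held by TIMPs (blue), MMPs (red) and ADAMTS proteases (dark grey), one bar per library, in percent from 0 to 100. TIMPs hold 30.1% to 36.5% in the oligomycin A table and 60.9% to 87.8% in the ADP and young bone tables.

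The comparison of oligomycin A with vehicle asked how blocked mitochondrial ATP synthesis changes the cells' transcripts. Adamts1 had 55.2, 52.7 and 54.9 FPKM in oligomycin A libraries 1 to 3, against 35.5, 32.6 and 34.8 FPKM in vehicle libraries. Every treated library was higher than every vehicle library, by 1.58 times on the means. The difference in log2(FPKM + 1), a scale that understates changes of low genes, was 0.65 ± 0.08 (SE), and it passed the threshold of an adjusted p of 0.05 (limma, Benjamini-Hochberg over all 11902 genes tested, adjusted p = 0.000649). Its size kept between 0.61 and 0.80 over all 18 other settings tried, each past the threshold.

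Timp1 went the other way under oligomycin A. It had 178, 171 and 169.9 FPKM in oligomycin A libraries 1 to 3, against 219.8, 202 and 222 FPKM in vehicle libraries, and the groups did not overlap. Its log2 difference was -0.31 ± 0.07 (SE; limma adjusted p = 0.0267). This call was often lost with a library left out. Without vehicle library 1 or 3, or without any one oligomycin A library, the adjusted p was 0.0670 to 0.0929. The difference stayed between -0.35 and -0.28 over the 6 omissions. With rescaling to one total, where the median over all genes was 0.12, it was -0.15 (limma adjusted p = 0.559). Rescaled without satellite-like, ribosomal RNA-like and 7S genes, a choice made with the data in view, it was -0.31 (limma adjusted p = 0.00267). Over its 18 alternatives the adjusted p ran from 0.000843 to 0.618, with 10 calls, and the difference kept its sign.

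So 2 of the 9 members tested passed, 1 higher and 1 lower, against 5.34% of all genes, of which 3.71% were higher and 1.63% lower, and 4 of 9 had an unadjusted p under 0.05, against 22.2% of all genes. Adamts4 also lay apart, at 3.77, 3.82 and 4.13 FPKM with oligomycin A against 3.52, 3.24 and 2.98 FPKM with vehicle, but its difference of 0.21 ± 0.07 did not pass (limma adjusted p = 0.0952). Timp2 was lower in each treated library, at 134, 131 and 138 FPKM against 158, 140.2 and 157 FPKM with vehicle, a difference of -0.17 ± 0.05 that did not pass (limma adjusted p = 0.0908). It did pass without vehicle library 2, the one rich in ribosomal RNA-like transcripts, at -0.23 (limma adjusted p = 0.0214), and under 3 rescalings of the libraries at -0.17 to -0.20. Groups that do not overlap were common here, at 16.8% of genes with oligomycin A higher and 13.1% with it lower. Mmp2 at -0.09, whose libraries also lay apart, Mmp14 at -0.12, Mmp13 at 0.10, Mmp3 at 0.05 and Adamts5 at 0.03 had adjusted p of 0.228 or more, and Timp3 was not tested. The median of the 9 was 0.03, beside -0.00 for all genes.

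Genes that work beside these proteases were listed by pathway. The plasminogen system, whose protease plasmin activates several pro-MMPs, had 2 of its 3 measured genes called: Plat (tissue plasminogen activator) averaged 36.2 ± 1.37 FPKM with oligomycin A against 21.9 ± 1.72 with vehicle, a log2 difference of 0.70, while Plaur (the urokinase receptor) was lower by -0.31. Of 18 matrix substrates Sparc alone passed, at -0.24, and of the other lists given here, with 4 other MMPs, 5 other ADAMTS genes, 6 ADAM sheddases, 2 proprotein convertases, 4 cathepsins and 4 other matrix-processing genes, 0 genes passed, with 1, 0, 2, 0, 1 and 1 at an unadjusted p under 0.05.

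AP-1 subunit genes, whose dimers bind the TGANTCA element printed above for Mmp3 and Mmp13, rose in 6 of 7 cases with oligomycin A. Fos averaged 435 ± 19.98 FPKM in oligomycin A cells against 31.9 ± 2.17 in vehicle cells, and Jun 296 ± 10.3 against 79.1 ± 8.07 (SD, n = 3 each). Their log2 differences were 3.73 and 1.89, followed by Junb at 1.49, Fosb at 1.42, Fosl2 at 0.61 and Fosl1 at 0.26. Mmp3 and Mmp13 did not pass in the same cells, and their 95% intervals ran from -0.12 to 0.22 and from -0.06 to 0.26. Any action of AP-1 on these genes was not tested. Fibroblast markers, 3 of 4 of which these cells express at 1 FPKM or more and of which Dpt was at or near 0, summed to 440.3 to 461 FPKM with oligomycin A against 473 to 494 FPKM with vehicle; their part in the results was not tested.

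**Figure D3:**
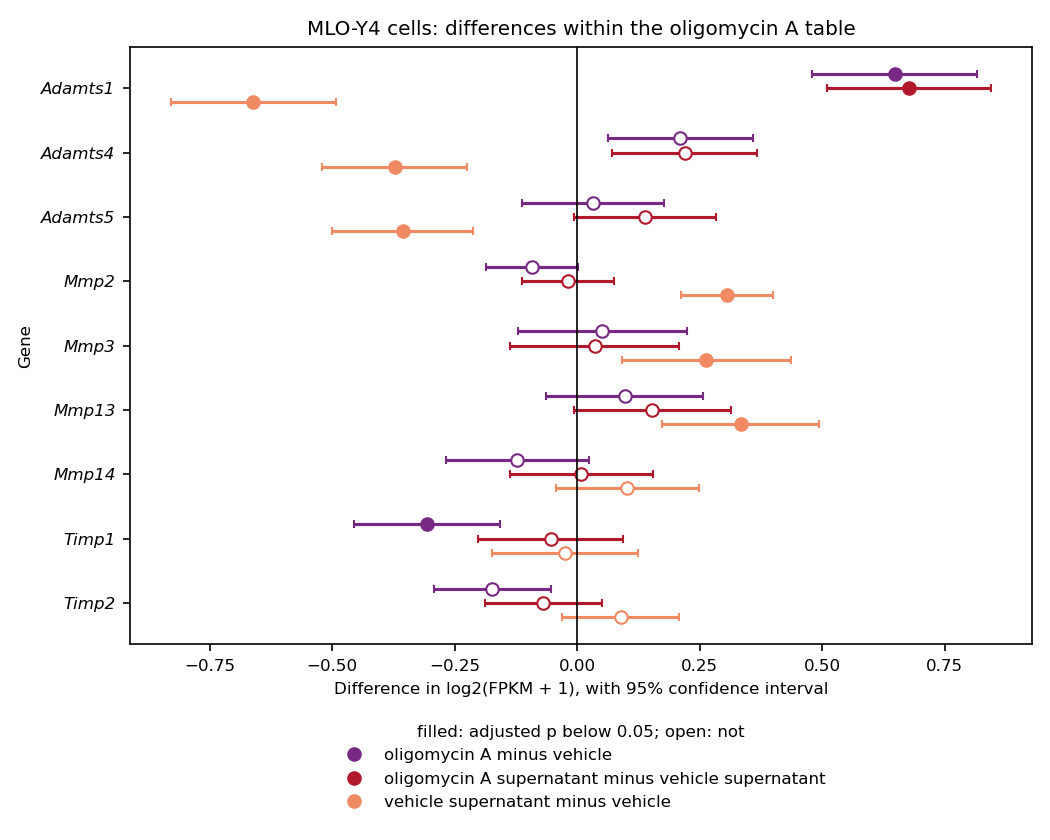
Difference in log2(FPKM + 1) with its 95% confidence interval for the 9 genes tested in MLO-Y4 cells, for oligomycin A minus vehicle (purple), oligomycin A supernatant minus vehicle supernatant (red) and vehicle supernatant minus vehicle (orange); filled points passed an adjusted p of 0.05. Adamts1 lies at 0.65, 0.68 and -0.66, Timp1 at -0.31 in treated cells, and the last comparison holds 6 filled points. The purple and orange comparisons share the vehicle libraries, and the red and orange ones share the vehicle supernatant libraries.

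The comparison of recipients asked whether medium of treated cells changes cells that were not treated themselves. Adamts1 had 31.8, 39.3 and 33.3 FPKM in recipients of oligomycin A supernatant 1 to 3, against 22.7, 21.2 and 20.1 FPKM in recipients of vehicle supernatant. All 3 lay above all vehicle supernatant libraries, a ratio of means of 1.63 and a log2 difference of 0.68 ± 0.08 (SE; limma adjusted p = 0.00392), which ranked 6 by p among 11902 genes. It was the 1 member called of 9 tested, against 0.386% of all genes, with 0.277% higher and 0.109% lower. At an unadjusted p under 0.05 there were 2, beside 8.08% of all genes. The size held between 0.59 and 0.74 over 18 alternatives, but the call was lost in 3: adjusted p was 0.0651 with rescaling to one total, 0.126 with rescaling without mitochondrial genes and 0.129 in a fit of only these 6 libraries. Mitochondrial transcripts held 9.88% to 9.94% of the summed FPKM with oligomycin A supernatant and 10.8% to 11.2% with vehicle supernatant. Their part in the result was not tested beyond that rescaling, which gave Adamts1 0.68 with an SE of 0.14. Rescaled without satellite-like, ribosomal RNA-like and 7S genes, a choice made with the data in view, it was 0.69 ± 0.08 (SE, limma adjusted p = 0.00335). The shared fit includes vehicle library 2, rich in ribosomal RNA-like transcripts, whose part in the calls lost on rescaling was not tested. Oligomycin A carried over in the supernatant and substances released by the treated cells cannot be told apart in this design.

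Adamts4 followed at 2.93, 2.74 and 2.78 FPKM in oligomycin A supernatant recipients, against 2.22, 2.16 and 2.45 FPKM in vehicle supernatant recipients, without overlap, but its difference of 0.22 did not pass (limma adjusted p = 0.316). Groups lay apart in the higher direction for 6.65% of all genes and in the lower one for 6.49%. Timp1, called in treated cells, had 194, 191 and 226 FPKM in oligomycin A supernatant recipients against 205, 219 and 208 FPKM in vehicle supernatant recipients, overlapping, with a difference of -0.05 and a 95% interval of -0.20 to 0.09. Differences of the other 6 tested lay between -0.07 and 0.15. Of 7 AP-1 genes 2 passed, Fos at 0.99 and Fosb at 0.72, and of 51 tested genes of the other pathway lists 0 passed in limma, with 6 at an unadjusted p under 0.05.

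The response of recipients was also set against that of treated cells in one fit, where 0.445% of genes passed. For Adamts1 the recipient response minus the direct response was 0.03, with a 95% interval of -0.21 to 0.27, so a difference between the responses of more than 0.27 in either direction lay outside the interval. For Fos the same difference was -2.74 and for Jun -1.79 (limma adjusted p = 2.06e-05 and 2.33e-05), and for Plat it was -0.53 (limma adjusted p = 0.0282). The Timp1 difference of 0.25 had an unadjusted p of 0.0227 and did not pass (limma adjusted p = 0.363), and 0 of 9 members did. At an unadjusted p under 0.05 the members numbered 1, beside 10.7% of all genes.

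The vehicle pair compares recipients of vehicle supernatant with vehicle-treated cells, both free of oligomycin A by the protocol. They differ at once in medium, which was conditioned in the recipients and fresh in the vehicle cells, and in time, which was 2 h against 1 h, so these cannot be told apart. The comparison uses the same vehicle libraries as the direct response and the same vehicle supernatant libraries as the recipient response. More members passed here than in either: 6 of 9, against 14.7% of all genes, of which 9.49% were higher and 5.18% lower. Libraries lay apart with 4 members higher and 3 lower, against 21.6% and 12.6% of all genes, and the 6 had an unadjusted p under 0.05, against 30.0% of all genes.

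All ADAMTS members were lower in vehicle supernatant recipients. Adamts1 had 22.7, 21.2 and 20.1 FPKM in vehicle supernatant recipients against 35.5, 32.6 and 34.8 FPKM in vehicle cells, a log2 difference of -0.66 ± 0.08 (SE; limma adjusted p = 0.000415). Adamts4 had 2.22, 2.16 and 2.45 FPKM against 3.52, 3.24 and 2.98 FPKM in vehicle cells, at -0.37 ± 0.07 (limma adjusted p = 0.00525). Adamts5 had 3.71, 4.25 and 4.36 FPKM against 5.48, 5.40 and 5.71 FPKM in vehicle cells, at -0.36 ± 0.07 (limma adjusted p = 0.00582). For each, all recipient libraries lay below all vehicle libraries. With rescaling to one total, where the median over all genes was 0.14, the calls of Adamts4 and Adamts5 were lost at -0.28 and -0.25 (limma adjusted p = 0.156 and 0.1998). Rescaled without satellite-like, ribosomal RNA-like and 7S genes, they passed at -0.39 and -0.38 (limma adjusted p = 0.00401 and 0.00173). Adamts1 passed in all 18 alternatives.

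The secreted MMP members were higher instead. Beyond the members, 0 of 4 other MMPs tested passed, and of 5 other ADAMTS genes 1 did, lower. Mmp2 had 647, 673 and 643 FPKM in vehicle supernatant recipients against 541, 512 and 535 FPKM in vehicle cells, a difference of 0.31 ± 0.04 (SE; limma adjusted p = 0.00132). Mmp13 had 6.01, 5.25 and 4.85 FPKM against 4.07, 4.28 and 3.77 FPKM in vehicle cells, at 0.33 ± 0.07 (limma adjusted p = 0.0127). Mmp3 had 64.3, 72.4 and 66.2 FPKM against 54.4, 57.5 and 56.5 FPKM in vehicle cells, at 0.26 ± 0.08 (limma adjusted p = 0.0456). The libraries lay apart for all 3, but the Mmp3 call held in 4 of 18 alternatives, with adjusted p of 0.0404 to 0.139, and in 0 of the 6 that left out 1 library, at 0.0659 to 0.139. The Mmp13 call was lost in a fit of only the 2 groups (limma adjusted p = 0.0643), and the Mmp2 call with rescaling without mitochondrial genes (0.0586). Mmp14 at 0.10, Timp1 at -0.03 and Timp2 at 0.09 did not pass.

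AP-1 genes were lower in the same recipients in 5 of 7 cases, with Fos at -2.31, Fosb at -1.17, Junb at -0.83, Jund at -0.73 and Jun at -0.41. Of the 7, 1 went the other way, with all recipient libraries above all vehicle libraries, and did not pass. Mmp3 and Mmp13, the members whose promoter windows hold TGANTCA, were higher, and any action of AP-1 on them was not tested. Of 18 substrate genes 6 were higher, led by the matricellular glycoprotein gene Tnc at 0.80, Dcn (decorin) at 0.39, Col4a1 and Col4a2 at 0.33, Spp1 (osteopontin) at 0.33 and Thbs2 at 0.21, and Col5a1 at -0.25 and Sparc at -0.20 were lower. Among other proteases Adam19 at 0.82, Ctsk (cathepsin K, a collagen-cutting cysteine protease) at 0.71 and Furin, a convertase that activates MMP14, at 0.49 were higher, and Adamts12 at -0.36 and Plat at -0.27 were lower. The 3 osteocyte markers expressed in these cells dominated a sum of 309 to 329.9 FPKM in vehicle supernatant recipients against 219 to 257 FPKM in vehicle cells, with Dmp1, Sost, Mepe and Fgf23 at or near 0; its part in the result was not tested. Of 5 osteoclast markers 2, Mmp9 and Ctsk, reached 1 FPKM, and the 5 summed to 17.3 to 20.5 FPKM against 13.7 to 14.2 FPKM, also not tested.

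For the members called among these 4 groups, the genes with the most similar pattern were found by Pearson correlation of log2(FPKM + 1) over the 12 libraries, among 6651 genes with a mean of at least 5 FPKM. The libraries share 4 groups and 1 normalization, so the correlations are descriptions. Adamts1 was most like Gem (r = 0.98), Plk2, Susd6, Pnrc1 and Spry2, and Adamts4 most like Pvr (0.97), Per1, Cyr61 and Fosb. Adamts5 was most like Mpp2 (0.98), Kdm4b, Pdk1, Etfdh and Pygl, so the lists of the ADAMTS genes held no gene in common. Mmp2 was most like Cops7a (0.99), Gas2, Josd1, Vat1 and Cdca7, Mmp3 most like Nup35 (0.96), Nsmce2, Tnfsf11, Atp6ap2 and Taf13, and Mmp13 most like Atp6v1c1 (0.97), Pak1ip1, Isl1, Smox and Zfp146. Timp1 was most like Abhd12 (0.96), Snf8, Ppib, Atp5h and H2afj.

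ADP, a ligand of purinergic receptors, gave no detectable difference in these genes at 2 µM for 2 h. Timp1, the highest member, had 390.0, 413 and 420 FPKM with ADP, against 398, 400.2 and 401 FPKM without ADP. Mmp2 had 308, 309.8 and 308 FPKM with ADP, against 307, 302 and 313 FPKM without ADP, and Adamts1 had 24.6, 23.9 and 25.4 FPKM with ADP, against 26.1, 24.1 and 24.0 FPKM without ADP. The groups overlapped for each of the 8 tested members, while 5.33% of all genes lay apart with ADP higher and 5.27% with ADP lower. Of 8 members tested 0 passed and 0 had an unadjusted p under 0.05, against 0.0603% and 5.84% of 11604 genes by limma. Differences ran from -0.07 for Adamts5 to 0.05 for Adamts4, and the 95% interval for Adamts1 was -0.11 to 0.10, for Mmp2 -0.05 to 0.06 and for Timp1 -0.05 to 0.11. Mmp13 lay below the filter, at 0.571, 0.644 and 0.485 FPKM with ADP against 0.879, 0.634 and 0.701 FPKM without ADP, and Timp3 was below it too. Of 57 tested genes in the pathway lists, AP-1 subunits among them, 0 passed and 3 had an unadjusted p under 0.05.

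The young bone experiment set the medium transfer group against the control group. Both received medium collected from bone fragments, and how their donors differed is not labelled. Timp1 had 2219, 6063 and 1061 FPKM in medium transfer libraries 1 to 3, against 1559, 1280.2 and 2701 FPKM in control libraries. Mmp13 had 347, 739 and 133 FPKM with medium transfer, against 164, 154 and 524 FPKM in control, and Timp3 had 38.3, 145 and 19.7 FPKM, against 24.0, 23.9 and 24.7 FPKM in control. In all 3 genes medium transfer library 2 was highest and library 3 lowest, on both sides of the control libraries. The satellite-like share of FPKM was 5.80% in that library 2 and 89.9% in library 3.

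Of the 10 members, all tested here, 0 passed and 0 had an unadjusted p under 0.05, against 0.0243% and 2.24% of 16438 genes by limma. Their differences ran from -0.23 for Timp2 to 0.96 for Timp3 with standard errors of 0.62 to 0.91, and an increase of 1 on the log2 scale lay within all 10 confidence intervals. The groups overlapped for all 10, and lay apart for 3.49% of all genes with medium transfer higher and 0.596% with it lower. Of the 10, 8 were positive, but so were 13994 of all 16438 genes, whose median was 0.45, and the members' median was 0.56. With FPKM rescaled after removal of satellite-like, ribosomal RNA-like and 7S genes, a choice made with the data in view, the median of all genes was -0.02 and the standard errors of 9 members fell to at most 0.37. Timp1 was then at -0.19, Mmp13 at -0.20 and Adamts5 at -0.08, so these turned sign, while Adamts1 at 0.28, Adamts4 at 0.29, Mmp14 at 0.29, Timp3 at 0.32 and Mmp2 at 0.01 did not. Timp2 was at -0.87 ± 0.23 (SE; limma adjusted p = 1.0). Without medium transfer library 2 the unrescaled differences of Timp1, Mmp13 and Mmp2 were -0.19, -0.14 and -0.08.

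The ratio of a pair of genes in 1 library does not depend on how its FPKM are scaled. Timp1 over Mmp13 was 6.40, 8.21 and 7.997 in medium transfer libraries and 9.50, 8.31 and 5.15 in control libraries, overlapping, although Timp1 itself varied 5.71 times over these 6 libraries. Timp2 over Mmp2, an inhibitor over the protease it binds, was 1.20, 1.20 and 2.49 with medium transfer and 3.34, 3.04 and 2.32 in control. Medium transfer library 3 lay above control library 3, so these overlapped as well. Mmp3 did not keep pace with any of the others: its share of the summed FPKM of the 10 genes varied 11.6 times over the 6 libraries, against 1.11 times for Timp1 and at most 2.89 times for the remaining 8. Mmp3 had 165, 35.8 and 10.2 FPKM with medium transfer and 33.8, 9.62 and 202 FPKM in control, so the highest and the lowest value both stood in the control group. Erythroid markers, all 4 of which were detected at 1 FPKM or more, summed to 6055 to 12197 FPKM with medium transfer and 2258 to 4632 FPKM in control, and osteoclast markers, all 5 detected, to 796 to 4939 FPKM and 692 to 863 FPKM; their part in the results was not tested.

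**Figure D4:**
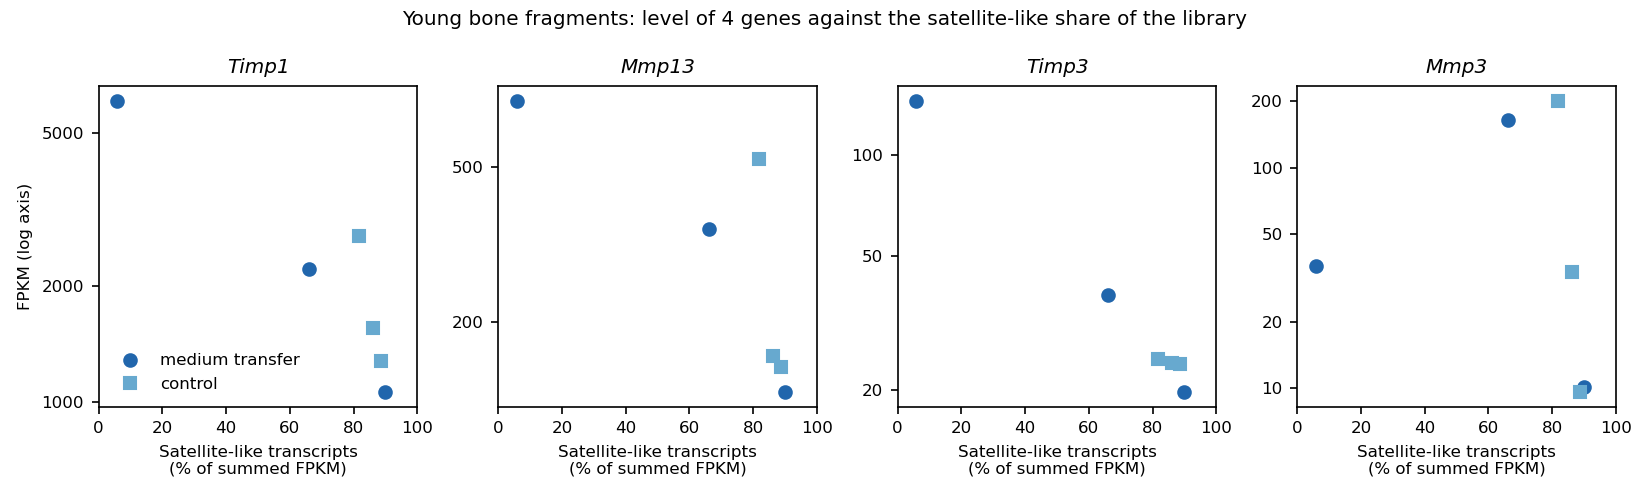
FPKM (log axis) of 4 genes in the 6 young bone libraries against the percentage of summed FPKM taken by satellite-like transcripts; circles are medium transfer and squares control. Timp1, Mmp13 and Timp3 are highest in the medium transfer library with a share of 5.80% and lowest in the one with 89.9%, whereas Mmp3 is highest in a control library with 81.7%.

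Old cortical bone had no group beside it in its table, so its levels are given with no comparison. Timp1 had 25.6, 20.9 and 17.2 FPKM and Timp2 16.9, 25.3 and 14.8 FPKM in libraries 1 to 3, so neither inhibitor led in all. Mmp13 had 6.28, 6.22 and 5.31 FPKM, Mmp2 4.98, 5.91 and 4.28 FPKM and Mmp14 3.39, 6.09 and 3.87 FPKM. The 10 genes made up 0.00646% to 0.00919% of the summed FPKM there, in libraries where 4 erythroid markers alone summed to at least 203138 FPKM. Timp1 over Mmp13 was 4.07, 3.36 and 3.24, and Timp2 over Mmp2 was 3.39, 4.28 and 3.46. Among related genes Mmp9 (gelatinase B, made by neutrophils and osteoclasts) averaged 87.9 ± 11.1 FPKM and Mmp8 (neutrophil collagenase) 69.8 ± 17.6 FPKM (SD, n = 3), both above every protease member, in libraries where all 6 neutrophil markers were detected; the part of neutrophils in these levels was not tested.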

How the data were processed

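Poly(A)-selected RNA was sequenced on an Illumina instrument, per the labels' protocols. The authors deposited FPKM values in 4 tables of 55335 gene rows. HTSeq and mm10 are named in the submitters' processing notes, with no role; aligner and FPKM tool are not given in the sources used here. FPKM are not counts: 24.8% to 55.2% of low values lay within 0.1 of a whole fragment, so the values were not turned into reads and no count model was used. No pair of libraries shared more than 0.0256% of values.

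Log2(FPKM + 1) was the tested scale, in limma 3.58.1 under R 4.3.3 (trended prior, genes with a mean of at least 1 FPKM, Benjamini-Hochberg over all genes, threshold 0.05), within tables only; the 4 oligomycin A groups shared 1 fit, tested on simulated data. Named were all members, pathway genes called (at most 6 per list and comparison) and the 5 genes most like each called member; Mmp8 and Mmp9 in old bone were named after their values were seen. One gene, and with it the list of other inhibitors, is not reported here. The members and lists were chosen with earlier results of these data known. Other pseudocounts, filters, scalings, priors, a replicate block and omitted libraries were tried as alternatives.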

Additional observations from a re-analysis of the deposited data

How the results depend on the processing

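Of 159 alternative values for the 9 member differences that passed, 128 kept their call, 31 lost it and 0 changed sign. Of 823 for the others, 4 passed, all Timp2 with oligomycin A, and 79 changed sign without passing. With oligomycin A 2 members passed; 1 did with no filter on low values, rescaled to one total or rescaled without mitochondrial genes, 3 with median-of-ratios scaling, quantile normalization or rescaling without satellite-like, ribosomal RNA-like and 7S genes (chosen after seeing the data), and 1 to 3 with a library left out. In recipients 1 passed, but 0 with rescaling to one total, with rescaling without mitochondrial genes or in a fit of only the 2 groups. In the vehicle pair 6 passed; 3 did at a mean of at least 5 FPKM, where Adamts4, Adamts5 and Mmp13 fall below the filter, 3 rescaled to one total, 2 without mitochondrial genes, 4 in a fit of only the 2 groups, and 5 with any library left out. Ribosomal RNA-like and 7S transcripts held 27.7% of vehicle library 2. Rescaled without these and satellite-like genes, Timp1 with oligomycin A had a limma adjusted p of 0.00267. In the vehicle pair the limma adjusted p was then 0.00401 for Adamts4, 0.00173 for Adamts5, 0.00073 for Mmp2 and 0.0471 for Mmp3. Beyond that rescaling, which transcripts set these shifts was not tested. Counts for ADP, young bone and the difference of responses stayed at 0 in the alternatives run. Rescaled to one total, the median over all genes was 0.12 with oligomycin A, 0.14 in the vehicle pair and 0.78 in young bone.

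Deviations of same-numbered libraries correlated at -0.23 to 0.06, beside -0.22 to 0.22 for other pairs. With 3 libraries a group this shows no sign of pairing but cannot exclude it. Oligomycin A cells and recipients of their supernatant were not checked this way. With replicate as a block 2 members passed with oligomycin A, 1 in recipients and 5 in the vehicle pair, where Mmp3 was lost (limma adjusted p = 0.0530); 434 genes passed with oligomycin A in place of 636. Unknown depth limits what can be said of Timp3 and Mmp13 in MLO-Y4 cells.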
